A study of Homo sapiens with 12 samples.

Results

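The cytosolic factors that start and lengthen proteins on the ribosome are described here: eIF1 to eIF6, the exchange factor eIF2B, the elongation factors eEF1 and eEF2, and the 4E-binding proteins. The 48 genes were taken by symbol, and all 48 were among the 60664 genes counted. Of these, 46 passed the filter on low counts. EIF5A2, the second eIF5A gene, had 0 counts in all 12 libraries, which allows at most 3 counts, or 0.0834 to 0.158 CPM (counts scaled to a common library size) at these depths. EEF1G, a subunit of eEF1, reached at most 1 count. In GENCODE, 99.9% of its exonic bases lie under AP002990.1, a gene on the same strand that had 16 to 94 counts.

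Poly(A) RNA was sequenced from TOM-1 and RS4;11, a pair of established human B-cell acute lymphoblastic leukaemia lines given as wild type in the labels. TOM-1 carries the BCR-ABL1 fusion of the Philadelphia chromosome and RS4;11 a KMT2A rearrangement. The 4 groups, of 3 libraries each, were TOM-1 in control culture, TOM-1 with ADI-PEG20, RS4;11 in control culture and RS4;11 with ADI-PEG20. ADI-PEG20, arginine deiminase coupled to polyethylene glycol, breaks down the arginine of the medium. It was given at 1000 ng/ml for 24 h to log-phase cells in medium with serum. Each line is a single line, so a difference between them cannot be told apart from other differences between these cultures. The labels do not say that replicates came from separate cultures, and p-values therefore measure the spread between these libraries, which may be technical.

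Initiation begins when eIF2, carrying GTP and the initiator tRNA, joins the small ribosomal subunit with eIF1, eIF1A, eIF3 and eIF5. The complex is recruited to the cap through eIF4E, the scaffold eIF4G and the helicase eIF4A, and it scans to a start codon. Amino acid shortage is known to slow initiation by phosphorylation of eIF2, which blocks its recycling by eIF2B, and through mTORC1, whose loss of activity lets 4E-binding proteins seize eIF4E. Both controls act on proteins and phosphorylation, which RNA counts do not measure.

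Library totals ran from 18958144 to 35956959 counts. TOM-1 control replicate 3 stood apart, with 14963 genes detected against 19857 to 21997 in the other libraries, and 19.96% of its counts on ribosomal protein genes against 9.30% and 9.04% in TOM-1 control replicates 1 and 2. For 26 of the 46 tested members its level differed by more than 1.5-fold from the mean of the other TOM-1 control libraries, 25 of all 46 being higher and 21 lower. Across those members this deviation fell with the length of the principal transcript, with Pearson's r = -0.40 and Spearman's rho = -0.44 (46 genes of the same libraries, a description). It was 1.56 on the log2 scale for EIF4EBP1, of 1020 bases, and -1.09 for EIF3A, of 6646 bases. Results that this library changes in call, direction or size are therefore given with and without it. The 8 B-lineage markers were detected in both lines and summed to 5242 to 5431 CPM in TOM-1 control, 5965 to 6143 CPM in treated TOM-1 and 1966 to 2258 CPM in RS4;11. Among markers of other cell types, EPCAM, KRT8 and HBB had 0 counts in every library, and CD3D, CD3E and CD2 stayed at or under 0.24 CPM. CD14, LYZ and HBA1 stayed at or under 1.26 CPM. NKG7 stood at 22.9 to 56.4 CPM in TOM-1 control, 45.2 to 49.6 in treated TOM-1 and 47.1 to 58.9 in RS4;11. PECAM1 (171 to 248 CPM) and MPO (10.6 to 17.1 CPM) were detected in TOM-1 and stayed at or under 1.10 CPM in RS4;11, and COL1A1 stood at 3.44 to 7.78 CPM in RS4;11 and at or under 0.362 CPM in TOM-1.

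**Figure D1:**
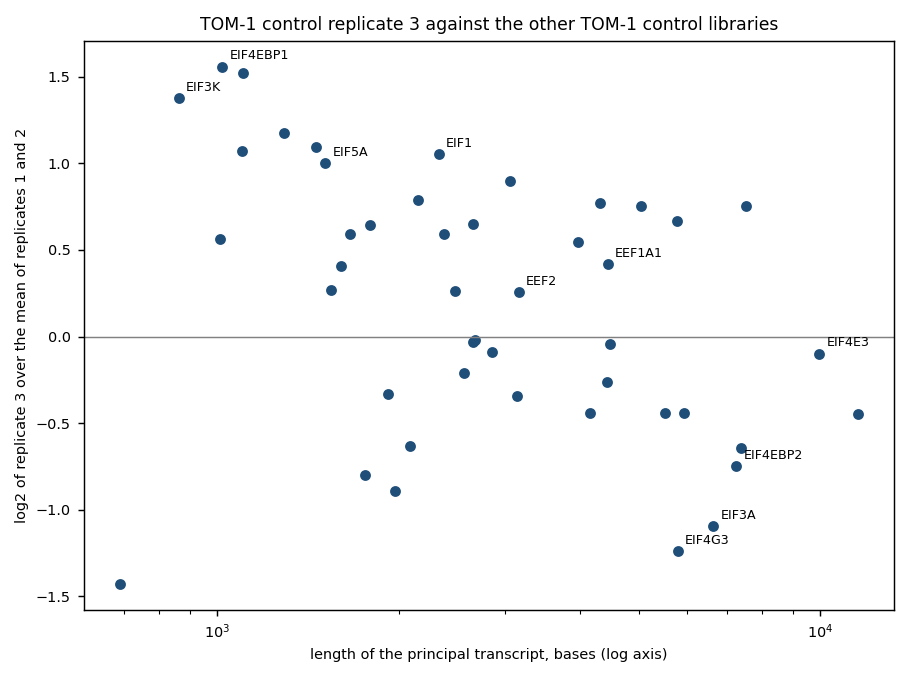
Each point is 1 of the 46 tested members. The horizontal axis gives the length of its principal transcript in bases on a log axis, and the vertical axis the log2 ratio of its level in TOM-1 control replicate 3 to the mean of TOM-1 control replicates 1 and 2. Short genes such as EIF4EBP1 (1.56) lie above 0 and long ones such as EIF3A (-1.09) below it, with exceptions on both sides.

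In TOM-1, ADI-PEG20 was followed by lower RNA for most elongation factors and eIF3 subunits and by higher RNA for EIF1, EIF4E3 and EIF5. Of the 46 tested members 25 passed the test (edgeR quasi-likelihood, Benjamini-Hochberg adjusted p under 0.05 over all tested genes), 3 higher and 22 lower. Over all 17349 tested genes 31.9% passed, 15.9% higher and 15.9% lower. The median log2 fold change was -0.40 over the members and 0.05 over all tested genes. Without TOM-1 control replicate 3, 35 members passed, 7 higher and 28 lower, against 41.6% of all 18321 tested genes, 21.8% higher and 19.8% lower, and the medians were -0.42 and 0.00. All 25 members called with all libraries were called in the same direction without it. With treatment, 5 members lay above every control library and 24 below, and 46.2% of all tested genes lay on either side. Leaving that library out, it was 9 above and 30 below, against 61.1%. In bulk RNA, a change in the share of cells expressing a gene and a change in RNA per cell cannot be told apart. The members together took 2.85% to 3.01% of all counts in TOM-1 control, 2.06% to 2.14% in treated TOM-1 and 3.07% to 3.40% in the RS4;11 libraries. The summed B-lineage markers and the ribosomal protein share (5.95% to 6.11% in treated TOM-1) moved with the treatment as well, and their part in these results was not tested.

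**Figure D2:**
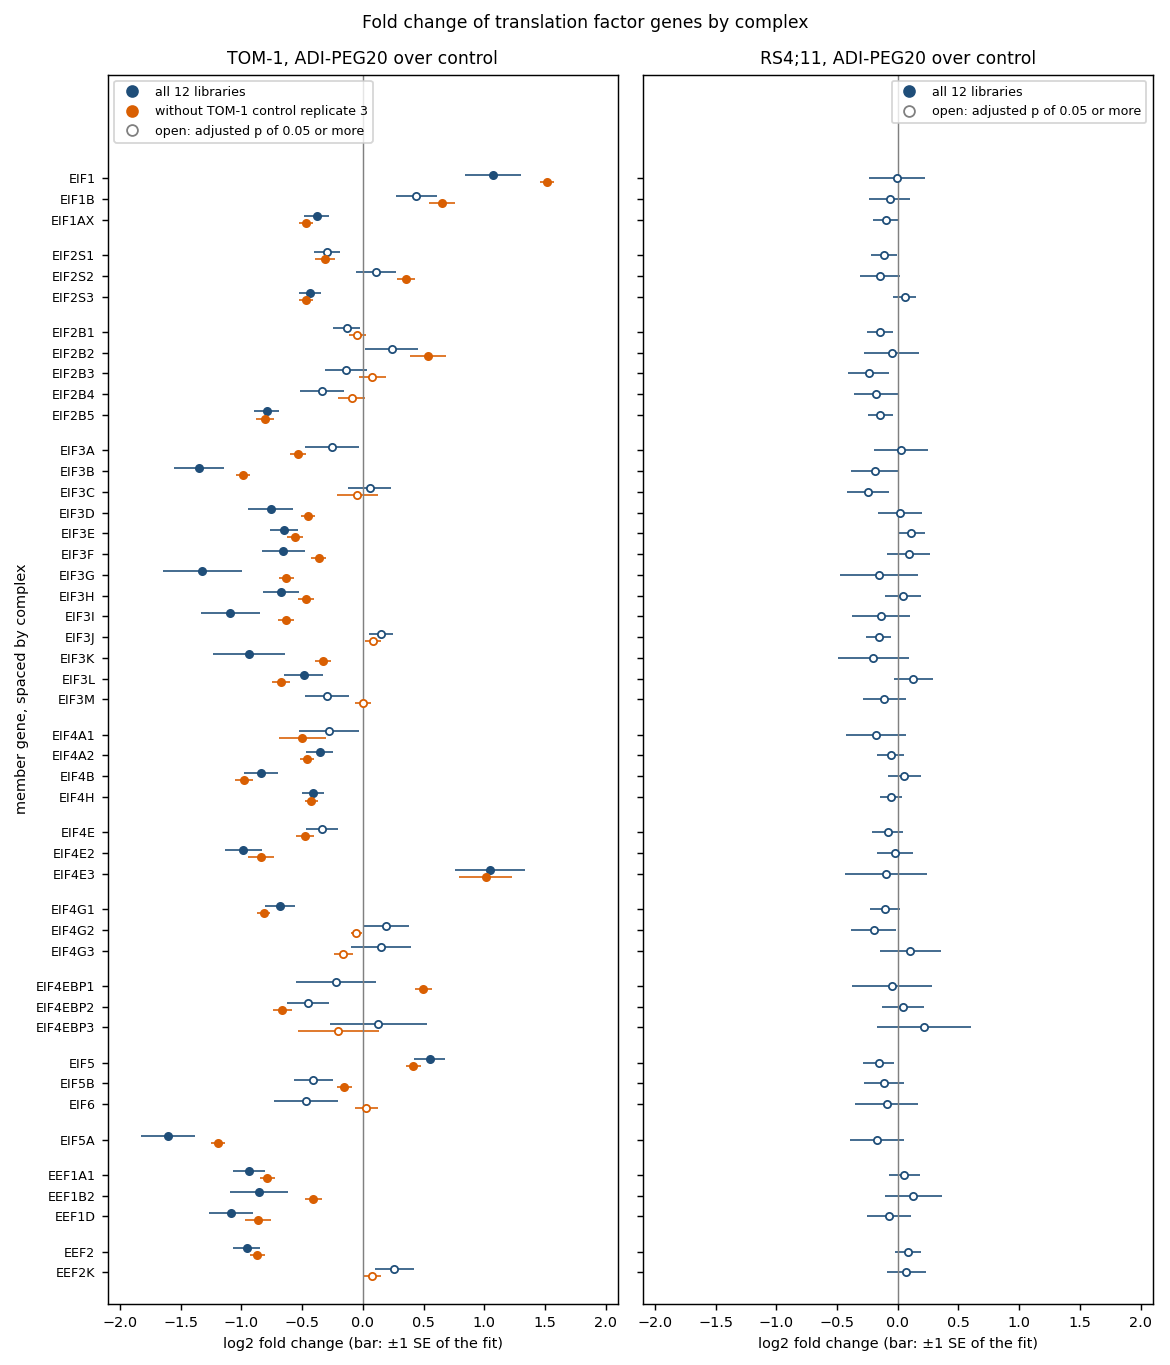
Log2 fold change of ADI-PEG20 over control for the 46 tested members, spaced by complex, in TOM-1 (left) and RS4;11 (right). Points are edgeR estimates, bars are 1 standard error of the fit, filled points have an adjusted p under 0.05, and orange points leave out TOM-1 control replicate 3. In TOM-1, 22 filled points lie left of 0 with all libraries and 3 right of it. In RS4;11 no point is filled and all lie between -0.24 and 0.22.

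The factors that choose the start codon did not move together. EIF1 (chr17:41688885-41692668 in GENCODE release 29 on GRCh38), which guards start-codon fidelity, had 328, 309 and 661 normalised CPM in the TOM-1 control libraries and 918, 927 and 887 in the treated ones. The treated libraries were all above the controls, and the third control lay nearest to them. The gene rose 2.11-fold (log2 1.07, SE 0.23, adjusted p = 0.00424), and 2.85-fold without TOM-1 control replicate 3 (log2 1.51, adjusted p = 1.14e-14). With the 6 TOM-1 libraries fitted alone the rise of 1.03 missed the threshold (adjusted p = 0.0691). Its paralog EIF1B stood at 43.1, 40.3 and 61.5 CPM in TOM-1 control and 60.6, 65.8 and 70.2 with treatment, overlapping groups that did not pass the test (log2 0.44, adjusted p = 0.0616). EIF1B did pass without the third control (log2 0.65, adjusted p = 3.17e-05). EIF1AX, the eIF1A protein that works with eIF1 during scanning, fell by 0.38 on the log2 scale (SE 0.11, adjusted p = 0.0162; 0.47 without TOM-1 control replicate 3). Leaving out TOM-1 ADI-PEG20 replicate 1 or 3 ended this call, with an adjusted p up to 0.058. Over the 25 alternative fits described with the processing EIF1AX was called in 21, with an adjusted p up to 0.0934.

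EIF5, which triggers GTP hydrolysis by eIF2 at the start codon, had 293, 280 and 210 CPM in TOM-1 control and 380, 396 and 372 with ADI-PEG20. All treated libraries were higher, and the gene rose by 0.55 on the log2 scale (SE 0.13, adjusted p = 0.0062; 0.42 without TOM-1 control replicate 3, adjusted p = 1.07e-05). The call was lost with length offsets (0.21, adjusted p = 0.146) and with the 6 TOM-1 libraries fitted alone (0.52, adjusted p = 0.0739). EIF5B, which joins the large subunit, did not pass with all libraries (log2 -0.41, adjusted p = 0.0729) and did without the third control (log2 -0.15, adjusted p = 0.0473). EIF6, which keeps the large subunit from joining early, had log2 changes of -0.47 (adjusted p = 0.2) and 0.03 (adjusted p = 0.862) with and without that library. A neighbouring gene in the same orientation covers 17.4% of the exonic bases of EIF6.

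Among the 3 subunits of eIF2, only EIF2S3, the GTP-binding gamma subunit, was called in TOM-1 with all libraries, against 31.9% of all tested genes. It had 743, 717 and 687 CPM in control and 534, 539 and 513 with treatment, groups that do not overlap, and fell by 0.44 on the log2 scale (SE 0.09, adjusted p = 0.00413; 0.47 without TOM-1 control replicate 3). Over the 25 alternative fits EIF2S3 was called in 24. EIF2S1, the alpha subunit that stress kinases phosphorylate, stood at 135, 138 and 133 CPM in control and 120, 112 and 98.7 with treatment (log2 -0.30, adjusted p = 0.0579). It passed at -0.31 with TOM-1 control replicate 3 left out (adjusted p = 0.00287). EIF2S2, the beta subunit, had 207, 213 and 329 CPM in control and 280, 278 and 250 with treatment. The third control lay above every treated library and the other controls below, so the gene was uncalled at 0.11 (adjusted p = 0.674) and called at 0.36 without that library (adjusted p = 0.000377).

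In eIF2B, the exchange factor that reloads eIF2 with GTP, 1 of 5 subunits was called, against 31.9% of all tested genes. EIF2B5, the catalytic epsilon subunit, had 111, 97.0 and 102 CPM in TOM-1 control and 58.3, 58.7 and 61.7 with ADI-PEG20. The groups lie far apart, and the fall of 0.79 on the log2 scale (SE 0.10, adjusted p = 0.000188) was 0.81 without TOM-1 control replicate 3. EIF2B1, EIF2B2, EIF2B3 and EIF2B4 ranged from -0.33 to 0.24 with no call. Of these only EIF2B2 was called without the third control, at 0.54 (adjusted p = 0.00453). A gene in the opposite orientation covers 23.6% of the exonic bases of EIF2B2, and the strand setting of the counting is not given in the sources used here.

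The eIF3 complex, the scaffold that holds the small subunit, mRNA and other factors together, fell broadly in TOM-1. Of its 13 subunits 9 fell and none rose (EIF3B, EIF3D, EIF3E, EIF3F, EIF3G, EIF3H, EIF3I, EIF3K and EIF3L), and 10 fell without TOM-1 control replicate 3, EIF3A being the tenth. Over all tested genes 15.9% fell, and 19.8% without that library. The summed level of the 13 genes was 3613, 3504 and 4925 CPM in TOM-1 control and 2586, 2584 and 2482 with treatment, with every treated library below every control. EIF3B (chr7:2354086-2380745), a core subunit, had 177, 179 and 331 CPM in control and 88.8, 91.6 and 88.9 with treatment. It fell by 1.35 on the log2 scale (SE 0.20, adjusted p = 0.000477), or 2.55-fold, and 1.98-fold without that library (log2 -0.99, adjusted p = 9.1e-12). EIF3G, an RNA-binding subunit needed for scanning, had 176, 164 and 488 CPM in control and 113, 107 and 110 with treatment. The third control lay far above the others, and the change of -1.32 (SE 0.32, adjusted p = 0.00877) was -0.63 without it (adjusted p = 3.68e-08).

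EIF3I behaved alike, with 157, 148 and 326 CPM in control and 99.5, 94.3 and 102 with treatment, a change of -1.09 (SE 0.24, adjusted p = 0.00513), and -0.63 without TOM-1 control replicate 3. EIF3K, a small peripheral subunit, went from -0.94 (adjusted p = 0.0297) to -0.33 without that library (adjusted p = 0.000361). It had adjusted p values up to 0.0834, above the threshold, without any 1 of the TOM-1 ADI-PEG20 libraries. Over the 25 alternative fits EIF3K was called in 21, with an adjusted p up to 0.132. EIF3D, which can itself bind the cap of some mRNAs, went from -0.76 to -0.45, EIF3F from -0.66 to -0.36 and EIF3H from -0.67 to -0.47, all called both ways. EIF3D, EIF3F, EIF3G, EIF3H and EIF3I were each called in 24 of the 25 alternative fits, with an adjusted p up to 0.0956. EIF3E was among the more stable, at -0.65 (SE 0.11, adjusted p = 0.00128) and -0.55 without the third control.

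EIF3A, the largest subunit, had 460, 452 and 214 CPM in TOM-1 control and 336, 310 and 300 with treatment. The third control lay under all treated libraries while the others lay above them, so the gene was uncalled at -0.25 (adjusted p = 0.441), and its fall of 0.53 without it passed (adjusted p = 3.4e-07). EIF3L was called at -0.49 (adjusted p = 0.0368) and at -0.67 without the third control. Its call was lost when any other TOM-1 library was left out, with an adjusted p up to 0.104. Over the 25 alternative fits EIF3L was called in 19, with an adjusted p up to 0.118. AL022311.1, in the same orientation, covers 41.1% of the exonic bases of EIF3L. Its lowest control (238 CPM) lay inside the treated range (219 to 244 CPM). EIF3J, which is loosely attached and leaves the complex early, was the only subunit whose treated libraries all lay above the controls (121, 124 and 121 CPM against 115, 116 and 99.5), without passing the test (log2 0.15, adjusted p = 0.287). EIF3M had a log2 change of -0.30 (adjusted p = 0.238), near 0 once TOM-1 control replicate 3 was left out. EIF3C could not be followed well. It had 137 to 605 counts, and its near-identical copy EIF3CL held 2.84% to 10.6% of the counts of the pair.

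At the cap, the helicase cofactors and the scaffold fell while the cap-binding proteins split. EIF4B, which stimulates the helicase eIF4A, had 962, 960 and 707 CPM in TOM-1 control and 503, 499 and 464 with treatment. Every treated library was lower, and the fall was 0.84 on the log2 scale (SE 0.14, adjusted p = 0.000884; 0.98 without TOM-1 control replicate 3). EIF4H, a related cofactor, fell by 0.41 (SE 0.09, adjusted p = 0.00478; 0.42 without that library) and EIF4A2, a helicase gene, by 0.35 (SE 0.11, adjusted p = 0.0288). The EIF4A2 call was lost when any other TOM-1 library was left out, with an adjusted p up to 0.0744, and held at -0.46 without the third control. Over the 25 alternative fits EIF4A2 was called in 18, with an adjusted p up to 0.122, and EIF4H in 24. EIF4A1, the other helicase gene, had only 132 to 484 counts, and genes in the same orientation, SENP3-EIF4A1 and AC016876.2 among them, cover 48.6% of its exonic bases. Its log2 change of -0.28 (adjusted p = 0.445) is uncertain for that reason.

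EIF4G1, the scaffold that bridges cap and ribosome, had 712, 681 and 512 CPM in TOM-1 control and 394, 400 and 395 with treatment, and fell by 0.68 (SE 0.12, adjusted p = 0.00153; 0.82 without TOM-1 control replicate 3). EIF4G2, a relative that lacks the eIF4E-binding region, had 1003, 960 and 528 CPM in control and 964, 944 and 936 with treatment. Apart from the low value of TOM-1 control replicate 3, its libraries lay within a narrow band, with no call at 0.19 (adjusted p = 0.488) or at -0.05 without that library (adjusted p = 0.433). EIF4G3, a paralog of EIF4G1, was uncalled at 0.15 (adjusted p = 0.712) and at -0.16 (adjusted p = 0.122).

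EIF4E, the cap-binding protein itself, stood at 88.3, 88.4 and 64.9 CPM in TOM-1 control and 65.7, 63.8 and 61.6 with treatment (log2 -0.34, adjusted p = 0.0682). It passed without TOM-1 control replicate 3 (log2 -0.48, adjusted p = 1.87e-05). EIF4E2, a cap-binding homologue known for repressing translation, had 56.4, 54.6 and 73.6 CPM in control and 36, 28.4 and 28.9 with treatment, and fell by 0.98 (SE 0.15, adjusted p = 0.000525; 0.84 without that library). EIF4E3, another cap-binding relative (chr3:71675416-71754773), went the other way. Its 25.7, 17.2 and 20.0 CPM in control compare with 44.0, 43.1 and 43.3 with treatment, all higher, a 2.07-fold rise (log2 1.05, SE 0.29, adjusted p = 0.016; 1.01 without TOM-1 control replicate 3, adjusted p = 0.000666). That call was lost when TOM-1 control replicate 2 or any TOM-1 ADI-PEG20 library was left out, with an adjusted p up to 0.0593, and with length offsets, where the log2 change was 0.56 (adjusted p = 0.207).

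**Figure D3:**
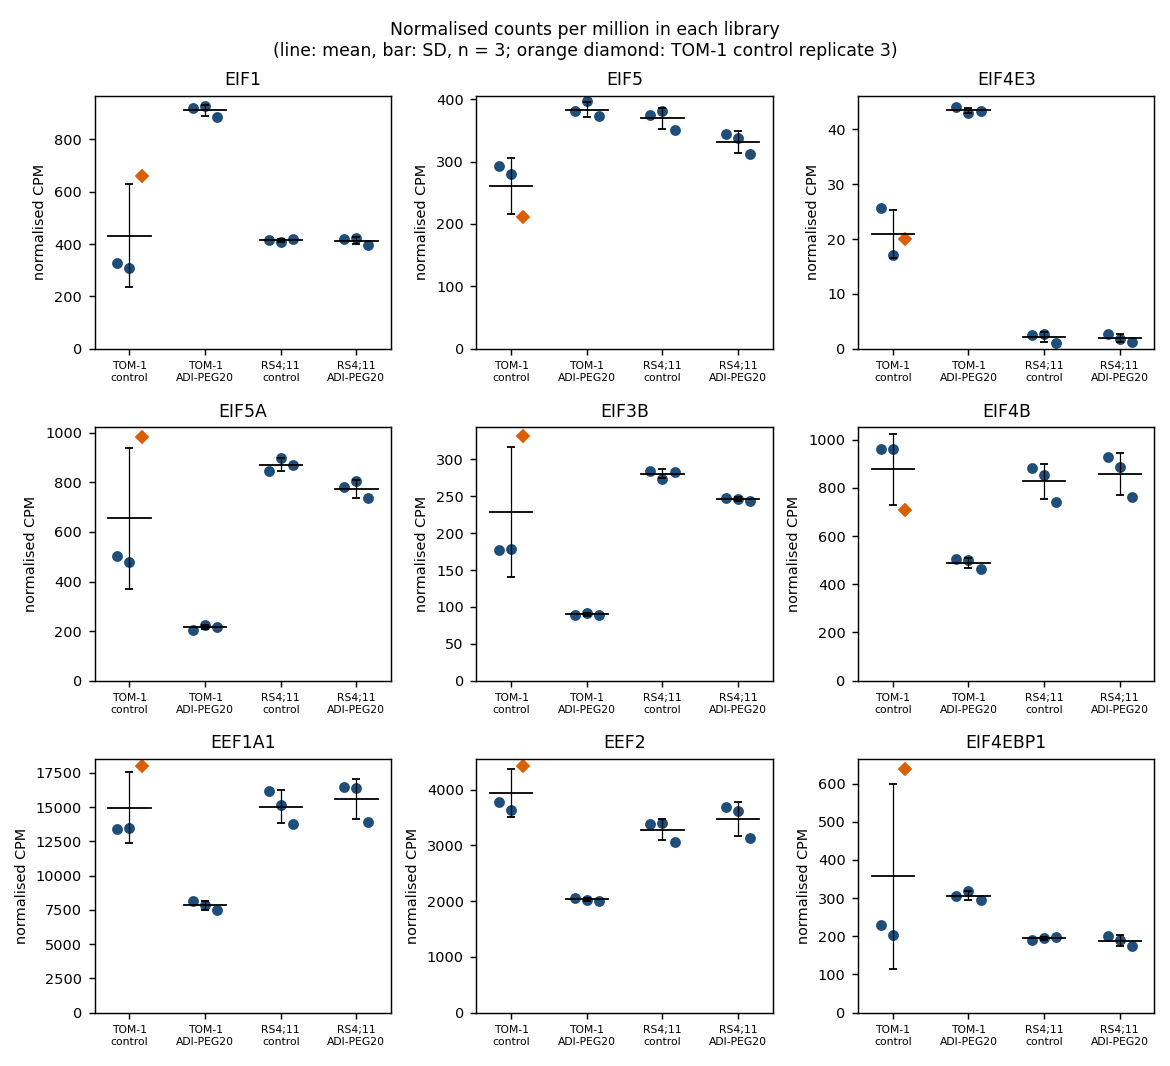
Normalised CPM of 9 members in each library by group. Points are libraries, the line is the mean, the bar is the SD (n = 3), and the orange diamond is TOM-1 control replicate 3. For EIF1, EIF5 and EIF4E3 the treated TOM-1 libraries lie above all TOM-1 controls, for EIF5A, EIF3B, EIF4B, EEF1A1 and EEF2 below them, and for EIF4EBP1 the controls fall on both sides.

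The 3 genes for 4E-binding proteins, which hold eIF4E away from eIF4G, gave no call in TOM-1 with all libraries, and the direction of EIF4EBP1 depended on 1 library. EIF4EBP1, also known as a target of the transcription factor ATF4, had 229, 204 and 637 CPM in TOM-1 control and 304, 318 and 296 with treatment. The third control lay above every treated library and the others below. The log2 change was -0.22 (SE 0.33, adjusted p = 0.674) with that library and 0.50 (SE 0.07, adjusted p = 5.16e-06) without it. EIF4EBP2 (chr10:70404379-70428618) had 230, 224 and 135 CPM in control and 139, 154 and 138 with treatment. Its change of -0.45 (adjusted p = 0.071) became -0.66 without the third control (adjusted p = 3.05e-07). EIF4EBP3 (chr5:140547666-140549578) had 18 to 149 counts per library, shares 73.4% of its exonic bases with the readthrough gene ANKHD1-EIF4EBP3, and changed by 0.13 (adjusted p = 0.865) and -0.20 (adjusted p = 0.702).

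Among all members the largest fall was that of EIF5A (chr17:7306999-7312463), a factor that relieves ribosomes stalled at proline-rich stretches and carries the modified amino acid hypusine. It had 501, 481 and 983 CPM in TOM-1 control and 206, 224 and 216 with treatment, so that the highest treated library lay below the lowest control. The fall was 3.04-fold (log2 -1.61, SE 0.22, adjusted p = 0.000304), and 2.29-fold without TOM-1 control replicate 3 (log2 -1.19, SE 0.06, adjusted p = 3.79e-13). The only member with a larger log2 change of either sign without that library was EIF1 (1.51).

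Elongation factors fell together. Of the 3 tested eEF1 genes all fell, and so did EEF2, against 15.9% of all tested genes. EEF1A1 (chr6:73515750-73523797), which brings aminoacyl-tRNA to the ribosome, was the most abundant member and took 45.7% to 48.8% of the members' counts in TOM-1 control and 39.5% to 40.6% in treated TOM-1. It had 13405, 13511 and 17970 CPM in control and 8127, 7827 and 7513 with treatment, a fall of 1.91-fold (log2 -0.94, SE 0.13, adjusted p = 0.00033). Without TOM-1 control replicate 3 it was 1.72-fold (log2 -0.79, adjusted p = 1.52e-09). EEF2 (chr19:3976056-3985469), which moves the ribosome along the mRNA, had 3771, 3627 and 4422 CPM in control and 2060, 2022 and 2006 with treatment. Its libraries were tightly grouped, and the fall of 1.94-fold (log2 -0.96, SE 0.11, adjusted p = 9.48e-05) was 1.83-fold without the third control.

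EEF1D, a subunit of the factor that reloads eEF1A with GTP, had 163, 195 and 270 CPM in TOM-1 control and 98.5, 104 and 93.7 with treatment. It fell by 1.09 on the log2 scale (SE 0.18, adjusted p = 0.00097; 0.86 without TOM-1 control replicate 3). Genes in the opposite orientation cover 34.0% of the exonic bases of EEF1D. EEF1B2, another exchange subunit, had 710, 680 and 1458 CPM in control and 528, 534 and 511 with treatment. The third control lay far above the others, and the change was -0.86 (SE 0.24, adjusted p = 0.0169) with it and -0.41 without it (adjusted p = 4.77e-05). The call was lost without TOM-1 ADI-PEG20 replicate 3 (adjusted p = 0.0554). Over the 25 alternative fits EEF1B2 was called in 23, with an adjusted p up to 0.0985. EEF2K, the kinase that switches eEF2 off, had 112, 114 and 72.3 CPM in control and 119, 119 and 120 with treatment. All treated libraries lay above the controls, without a call (log2 0.26, adjusted p = 0.246; 0.07 without the third control, adjusted p = 0.501).

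In RS4;11 no member passed the test, with all libraries or without TOM-1 control replicate 3. Of all tested genes 0% and 0.317% passed. At an unadjusted p under 0.05, 0 of 46 members and 325 of 17349 genes were reached in edgeR with all libraries, and 14 members and 2207 of 18321 genes without that TOM-1 library, which is in neither RS4;11 group but enters the shared filter, scaling and estimate of spread. DESeq2 and voom with sample quality weights called 0 members, and of the alternatives 1, a replicate block without that library, called EIF4G2 (log2 -0.20, adjusted p = 0.0101). Over all genes DESeq2 called 0 of 31363, voom 17 of 17349 and that replicate block 209 of 18321. The members' log2 changes lay between -0.24 and 0.22, with a median of -0.08 (all genes 0.00). For EIF1 the change was -0.01 with a 95% interval of -0.45 to 0.44, for EIF5A -0.17 (-0.60 to 0.26), for EEF1A1 0.06 (-0.20 to 0.31) and for EEF2 0.08 (-0.13 to 0.30). Intervals of this width do not show that the genes were unaffected.

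The RS4;11 groups did not overlap for 15 members, all lower with treatment, against 16.8% of all tested genes (1339 higher and 1570 lower of 17349). EIF4G2 came closest to a call, at 1223, 1224 and 1193 CPM in control and 1073, 1052 and 1050 with treatment (log2 -0.20, adjusted p = 1, and 0.0513 without TOM-1 control replicate 3). EIF3B had 285, 273 and 283 CPM in RS4;11 control and 248, 247 and 243 with treatment (log2 -0.19, adjusted p = 1). EIF5A had 847, 898 and 871 against 782, 805 and 736 CPM. In TOM-1 EIF3B and EIF5A fell by 1.35 and 1.61 on the log2 scale, and EIF4G2 was not called.

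The difference between the lines' responses was tested as an interaction, which shares its libraries with both comparisons above. It passed for 12 of the 46 members, 1 with a higher and 11 with a lower response in TOM-1, against 11.9% of all tested genes (5.89% and 6.05%). Without TOM-1 control replicate 3 it passed for 32, 8 higher and 24 lower, against 30.4% of genes (15.7% and 14.7%). EIF5A had the largest difference among called members (log2 -1.43, SE 0.31, adjusted p = 0.0123; -1.02 without the third control), followed by EIF3B, EEF2, EEF1D and EEF1A1. EEF2 differed by -1.04 (SE 0.16, adjusted p = 0.0018) and EEF1A1 by -0.99 (SE 0.19, adjusted p = 0.00606), and both kept their call in every alternative run. EIF3B (log2 -1.16, adjusted p = 0.0211) lost its call without TOM-1 ADI-PEG20 replicate 3, RS4;11 control replicate 1 or 2 or RS4;11 ADI-PEG20 replicate 1, with an adjusted p up to 0.0532. EEF1D (log2 -1.01, adjusted p = 0.025) lost it without TOM-1 ADI-PEG20 replicate 1 or 3, RS4;11 control replicate 1 or 2 or RS4;11 ADI-PEG20 replicate 3, with an adjusted p up to 0.0628.

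EIF5 was the member whose response was higher in TOM-1, with a difference of 0.71 (SE 0.18, adjusted p = 0.0253; 0.57 without TOM-1 control replicate 3, adjusted p = 1.52e-05). The call was lost when any TOM-1 ADI-PEG20 or RS4;11 library was left out, with an adjusted p up to 0.0952. EIF1 missed the threshold with all libraries (difference 1.08, SE 0.32, adjusted p = 0.0502) and passed without the third control (1.52, SE 0.07, adjusted p = 2.66e-12). EIF4G1 did so too (-0.58, adjusted p = 0.0506, and -0.71, adjusted p = 1.46e-07). For EIF4EBP1 the difference turned from -0.18 (adjusted p = 0.884) to 0.54 (adjusted p = 0.000121) without it.

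The lines were also compared in control culture, with the same TOM-1 control libraries as above. EIF4E3 was far higher and EIF4H far lower in TOM-1. Between the control cultures 11 of 46 members were called, 3 higher and 8 lower in TOM-1, against 34.7% of all genes (16.2% higher and 18.4% lower). Leaving out TOM-1 control replicate 3, it was 32 members, 7 higher and 25 lower, against 52.8% (25.4% and 27.5%). In TOM-1 7 members lay above every RS4;11 control library and 13 below, against 42.7% of all genes on either side, and 11 and 29 without that library, against 68.2%. EIF4E3 stood at 25.7, 17.2 and 20.0 CPM in TOM-1 control and 2.49, 2.72 and 1.05 CPM in RS4;11 control, where 22 to 66 counts lie behind each value. It was 9.97-fold higher in TOM-1 (log2 3.32, SE 0.33, adjusted p = 8.04e-06), and 10.1-fold without the third control. EIF4H had 526, 488 and 499 CPM in TOM-1 and 1194, 1236 and 1216 in RS4;11, 2.41-fold lower in TOM-1 (log2 -1.27, SE 0.09, adjusted p = 5.84e-07).

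EIF3C was lower in TOM-1 by 1.26 on the log2 scale (adjusted p = 0.000135) and EIF2B2 higher by 0.97 (adjusted p = 0.00503; 0.66 without TOM-1 control replicate 3). The limit given above for EIF3C holds here too. Its near-identical copy EIF3CL held 2.84% to 6.62% of the pair's counts in TOM-1 control and 7.47% to 9.22% in RS4;11 control. EIF5 (-0.50, adjusted p = 0.0091) and EIF4G2 (-0.55, adjusted p = 0.0399; -0.31 without the third control) were lower in TOM-1. The treated TOM-1 libraries, at 372 to 396 CPM of EIF5, overlap the RS4;11 controls (374, 382 and 351 CPM). The EIF4G2 call was lost when any TOM-1 ADI-PEG20 or RS4;11 control library or RS4;11 ADI-PEG20 replicate 1 was left out, with an adjusted p up to 0.0871. EIF4EBP3 (-1.14, adjusted p = 0.0424) lost its call without replicate 2 of any group, TOM-1 ADI-PEG20 replicate 3, RS4;11 control replicate 3 or RS4;11 ADI-PEG20 replicate 1 (adjusted p up to 0.143), and EIF2S3 (0.28, adjusted p = 0.0366) without any library but TOM-1 control replicate 3 (adjusted p up to 0.198). Over the 25 alternative fits EIF4G2 was called in 17, EIF4EBP3 in 16 and EIF2S3 in 12. Their adjusted p reached 0.2, 0.148 and 0.217. EIF5A (-0.41, adjusted p = 0.173) and EIF6 (-0.36, adjusted p = 0.321) were uncalled with all libraries and lower in TOM-1 by 0.83 and 0.86 without the third control. EIF1, EIF3D, EIF3G, EIF3K, EIF5B and EEF1B2 turned from uncalled positive differences (0.06, 0.08, 0.41, 0.17, 0.09 and 0.22) to called negative ones without it (-0.38, -0.23, -0.29, -0.45, -0.17 and -0.23).

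Levels between genes can be compared only per length. On the scale of CPM per kilobase of the principal transcript, EEF1A1 led in all 4 groups, at 3384 ± 270 in RS4;11 control and 1761 ± 69.1 in treated TOM-1 (SD, n = 3), and EEF2 came next in all 4 groups. EIF5A was the fifth of 48 in TOM-1 control (434 ± 188) and the tenth in treated TOM-1 (142 ± 5.73). EIF1 moved from the fourteenth (186 ± 85.1) to the fifth (391 ± 9.17) in TOM-1, and was the fourteenth in RS4;11 control (178 ± 2.73). In TOM-1 control replicates 1 and 2 EIF1 stood at 141 and 132 and EIF5A at 332 and 318, against 284 and 651 in the third, so these means and ranks rest in part on that library. EIF4E, at 6.99 ± 1.18 in TOM-1 control, and EIF4E3, at 2.11 ± 0.438, were near the bottom in every group. The length used was that of the longest principal transcript, 11523 bases for EIF4E and 1604 for EIF4E2. In TOM-1 control EIF4E had more CPM than EIF4E2 (means 80.5 and 61.5) but less per kilobase (6.99 and 38.3). These ranks therefore depend on the transcript chosen, and the transcripts used in these cells were not tested.

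Ratios within a library remove the scaling between libraries. For 8 pairs of paralogs or partners the log2 ratio was compared by a two-sided exact permutation test in 3 comparisons, 24 tests in all. With 3 libraries against 3 the smallest p is 0.1, and after adjustment over the 24 tests 0.218, so no ratio could pass. EIF4G1 over EIF4G2 was -0.49, -0.50 and -0.04 in TOM-1 control and -1.29, -1.24 and -1.24 with treatment, lower by 0.91 with no overlap (exact p = 0.1; 0.76 lower without TOM-1 control replicate 3). In RS4;11 it was -0.89, -0.88 and -0.95 in control and -0.81, -0.78 and -0.85 with treatment, 0.09 higher with no overlap (exact p = 0.1). All treated TOM-1 libraries thus held less EIF4G1 per EIF4G2 than any TOM-1 control. EIF4G1 over EIF4G3 was lower with treatment in both lines, with no overlap. The difference was -0.92 in TOM-1 (exact p = 0.1), or -0.66 without TOM-1 control replicate 3, and -0.21 in RS4;11 (exact p = 0.1).

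EIF1 over EIF1B was 2.93, 2.94 and 3.42 in TOM-1 control and 3.92, 3.82 and 3.66 with treatment, higher in every treated library (0.70, exact p = 0.1). EIF4E over EIF4E2 was 0.65, 0.70 and -0.18 in TOM-1 control and 0.87, 1.17 and 1.09 with treatment (0.65, exact p = 0.1; 0.37 without the third control). EIF4EBP1 over its target EIF4E was 1.37, 1.21 and 3.30 in TOM-1 control and 2.21, 2.32 and 2.26 with treatment. These overlap through the third control alone (0.31, exact p = 0.8), and without it the treated libraries were 0.97 higher. In RS4;11 this ratio stayed between 0.90 and 1.10 in all 6 libraries. EIF5A over EIF5A2 is not described, since EIF5A2 had no counts.

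**Figure D4:**
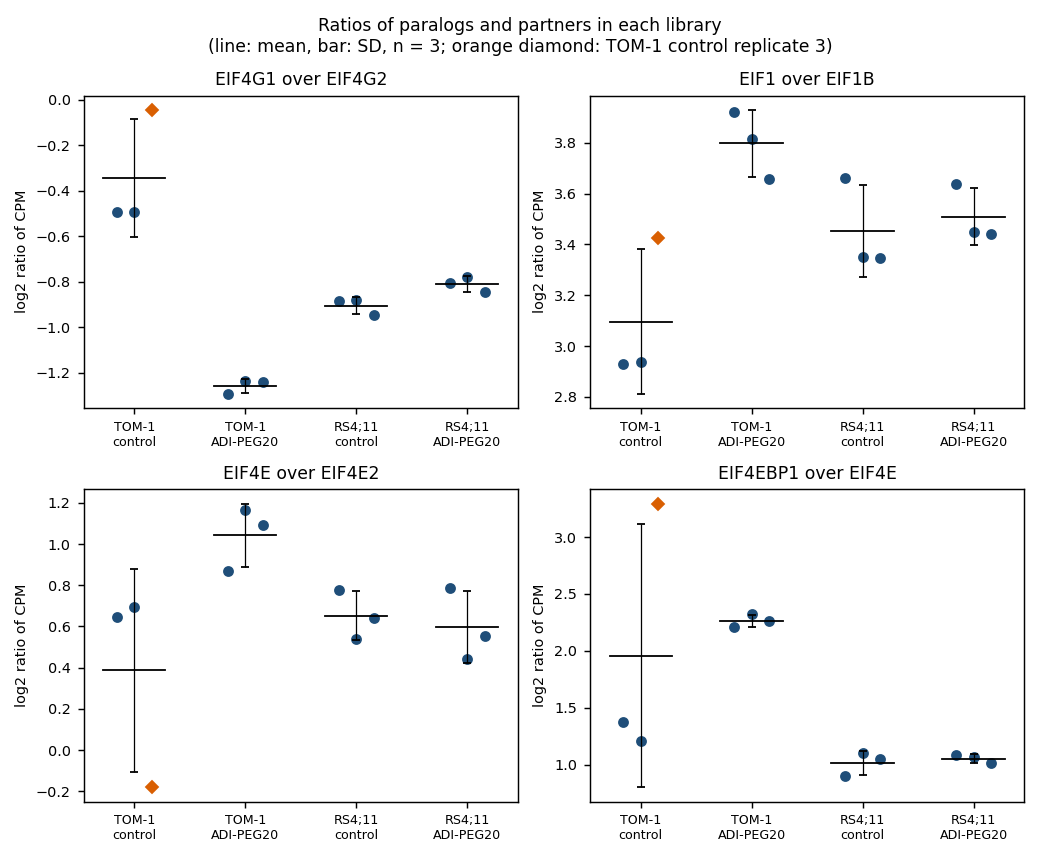
Log2 ratio of raw counts within a library (pseudocount 1, labelled as CPM on the axis) for 4 pairs in each library by group. Points are libraries, the line is the mean, the bar is the SD (n = 3), and the orange diamond is TOM-1 control replicate 3. The treated TOM-1 libraries lie below all TOM-1 controls for EIF4G1 over EIF4G2 (mean -1.26 against -0.35), above them for EIF1 over EIF1B and EIF4E over EIF4E2, and between them for EIF4EBP1 over EIF4E.

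Many mRNAs of the translation machinery are known to begin with a C followed by a run of pyrimidines, the terminal oligopyrimidine or TOP start, through which mTORC1 and LARP1 control their translation. The annotated RefSeq starts (GRCh38.p14) were searched for a C at the first transcribed base followed by at least 4 C or T, on the transcribed strand only. Such a start was found in 4.07% of 35116 promoter entries. By gene, it was found in at least 1 entry of 5.14% of 27305 symbols and of 10 of the 40 members with an entry, 10 of which have more than 1. EIF2S2, EIF3A, EIF3E, EIF3G, EIF3H, EIF3L, EIF4EBP1 and EEF1D had no entry. The sequences are shown because 9 of these 10 members fell in treated TOM-1. Each gives 10 bases before the start and 20 from it, 5′ to 3′, with the pyrimidine run in capitals. EIF1 and EIF3B, the members without such a start that rose and fell the most among those with a single entry, are shown for comparison and carry no capitals.
EEF1A1 (chr6:73521013-73521042, minus strand): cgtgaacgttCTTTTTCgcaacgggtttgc
EEF2 (chr19:3985444-3985473, minus strand): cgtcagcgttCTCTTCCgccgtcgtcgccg
EEF1B2 (chr2:206159885-206159914, plus strand): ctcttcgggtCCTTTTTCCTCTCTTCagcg
EIF4B (chr12:53006446-53006475, plus strand): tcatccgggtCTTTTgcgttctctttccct
EIF4A2 (chr3:186783567-186783596, plus strand): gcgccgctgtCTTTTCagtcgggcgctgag
EIF3D (chr22:36529147-36529176, minus strand): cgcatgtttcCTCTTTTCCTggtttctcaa
EIF3F (chr11:7987327-7987356, plus strand): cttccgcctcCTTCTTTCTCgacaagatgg
EIF3K (chr19:38619178-38619207, plus strand): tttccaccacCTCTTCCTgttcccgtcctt
EIF3M (chr11:32583821-32583850, plus strand): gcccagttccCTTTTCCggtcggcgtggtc
EIF2S3 (chrX:24054946-24054975, plus strand): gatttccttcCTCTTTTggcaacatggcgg
EIF1 (chr17:41688875-41688904, plus strand): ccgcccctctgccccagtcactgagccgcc
EIF3B (chr7:2354817-2354846, plus strand): tcgcacgcacatggctgggctgtagccgtc

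The run was longest in EEF1B2, at 16 bases in 1 of its 2 annotated starts, and shortest in EIF4B, at 5. In TOM-1, 9 of the 10 members with such a start fell and none rose, EIF3M being uncalled, and their median log2 change was -0.80. Of the 28 tested members with another start 8 fell and 3 rose, with a median of -0.29. Leaving out TOM-1 control replicate 3, it was 9 of 10 (median -0.46) and 13 of 28 (median -0.16), 5 of the latter rising. The members with no promoter entry are in neither class. With all libraries EIF3E, EIF3G, EIF3H, EIF3L and EEF1D among them fell, and EIF2S2, EIF3A and EIF4EBP1 were uncalled. Over all tested genes with such a start 30.0% fell (248 of 826), and 25.1% (193 of 768) with ribosomal protein genes and members left out, against 17.8% (1881 of 10557) of genes with another start. Without TOM-1 control replicate 3 these shares were 33.9%, 29.4% and 23.1%. With all libraries 139 of those 768 genes rose (median 0.00), against 1969 of the 10557 with another start (median 0.06). Of ribosomal protein genes with such a start 46 of 48 fell (median -1.34, and -0.69 without that library). Of all 85 tested ribosomal protein genes, whatever their start, 80 fell (median -1.31, and -0.68 without that library). The 46 of 48 is therefore near the share of ribosomal protein genes as a whole. EIF5A and EIF3B, with the largest falls among members, had no such start. Whether the start has a part in the falls was not tested. In RS4;11 the medians were 0.06 with and -0.11 without the start, and no member was called. A match to an annotated start is a description of the reference sequence, not of the start used in these cells.

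**Figure D5:**
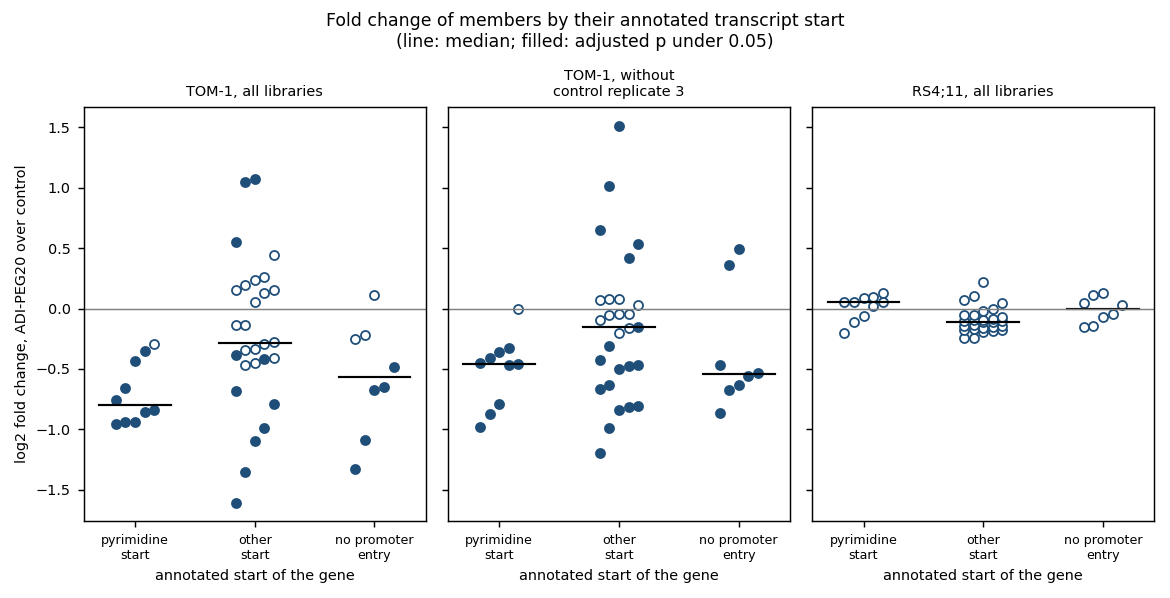
Log2 fold change of ADI-PEG20 over control for the 46 tested members, split by their annotated RefSeq start: a C with at least 4 pyrimidines after it, another start, or no promoter entry. Panels are TOM-1 with all libraries, TOM-1 without control replicate 3, and RS4;11. Lines are medians (-0.80 and -0.29 for the first pair of classes in TOM-1), and filled points have an adjusted p under 0.05.

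Other genes of translation gave calls in both directions in TOM-1, with all libraries at shares near those of all tested genes. Of 42 tested genes for termination, cap-side partners, initiation helpers, kinases, hypusine enzymes and mitochondrial factors, 5 rose and 6 fell in TOM-1, with a median of -0.05, against 15.9% of all genes in each direction. Leaving out TOM-1 control replicate 3, 7 rose and 11 fell (all genes 21.8% and 19.8%). PDCD4, an inhibitor of eIF4A, had the largest rise called with and without that library, from 89.5, 97.7 and 47.6 CPM in control to 170, 180 and 179 with treatment (log2 1.17, SE 0.22, adjusted p = 0.00212; 0.91 without that library). TUFM, the mitochondrial counterpart of eEF1A, had the largest such fall, from 348, 333 and 635 CPM to 141, 141 and 142 (log2 -1.64, SE 0.21, adjusted p = 0.000152; -1.27 without that library). DHPS, which starts the hypusine modification of eIF5A, fell from 9.01, 7.33 and 6.79 CPM to 3.90, 4.01 and 4.09 CPM (log2 -0.95, adjusted p = 0.0104; -1.04 without that library). In RS4;11, TUFM (-0.25, adjusted p = 0.0331) and DOHH, the second hypusine enzyme (-0.58, adjusted p = 0.0255), were called without TOM-1 control replicate 3 and not with all libraries in edgeR, DOHH also by voom with all libraries (adjusted p = 0.0379).

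In the difference between the lines' responses 1 of the 42 was higher and 4 lower in TOM-1 (all genes 5.89% and 6.05%), and 8 and 8 without TOM-1 control replicate 3 (15.7% and 14.7%). MTIF2, a mitochondrial initiation factor, led the higher ones (0.62, adjusted p = 0.028) and TUFM the lower ones (-1.38, adjusted p = 0.00963). The MTIF2 call was lost when any TOM-1 ADI-PEG20 or RS4;11 library was left out, with an adjusted p up to 0.108, and with no filter on low counts (adjusted p = 0.129). Between control cultures 3 were higher and 12 lower in TOM-1 (all genes 16.2% and 18.4%), and 6 and 19 without TOM-1 control replicate 3 (25.4% and 27.5%). TPT1, a growth-related protein whose mRNA is known for a TOP start, led the higher ones (0.97, adjusted p = 0.00989; 0.47 without TOM-1 control replicate 3). With the 6 control libraries fitted alone TPT1 missed the threshold (adjusted p = 0.081). PAIP2B, a regulator of poly(A)-binding protein, had 0 counts in all TOM-1 libraries and 5.92, 5.31 and 6.79 CPM in RS4;11 control. Of 85 tested cytosolic ribosomal protein genes 80 fell in TOM-1, against 15.9% of all tested genes (median log2 change -1.31, and -0.68 without the third control). None of the 85 was called in RS4;11.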

How the data were processed

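The authors deposited raw counts, whole reads per Ensembl gene, for 12 libraries. The submitters' processing notes name STAR, SAMtools, featureCounts and hg38; the strand setting, the treatment of reads on overlapping genes and the annotation release are not given in the sources used here. Symbols were looked up by Ensembl identifier (60463 of 60664 found), and positions, overlaps and lengths from GENCODE release 29 on GRCh38, which held 58396. Groups came from the sample titles, and columns from the column names in the descriptions. Members and lists were chosen with earlier results of these data known.

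Genes were filtered with filterByExpr (17349 kept), scaled with TMM factors and fitted in edgeR 4.0.16 as 1 group-means model with quasi-likelihood tests of 4 contrasts, adjusted by Benjamini-Hochberg over all tested genes at 0.05. The standard error is the log2 fold change divided by the square root of F. Normalised CPM uses TMM sizes; summed markers and shares use total counts. The fits by edgeR, DESeq2 and voom, the length offsets and the replicate block were tested on simulated data, and the other alternatives were not. The simulated libraries shared their gene means apart from genes changed in treated TOM-1. They therefore held no deviating library such as TOM-1 control replicate 3. Alternatives were DESeq2 1.42.0 and its size factors, upper-quartile scaling, no low-count filter, a minimum mean count of 10, voom with sample quality weights in limma 3.58.1, 6 libraries alone, pseudogene copies added, length offsets (lowess, span 0.3) and each library left out; 3 combinations without TOM-1 control replicate 3 were added after seeing the data.

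All 48 members are accounted for by complex. Values per library are given for the 4E-binding proteins and, per contrast, for up to 5 members per direction with the largest change among those called with and without TOM-1 control replicate 3; other members were given values to describe their complex. No protein sequences are shown. Every replicate pair differed by more than counting noise (chi-square over its degrees of freedom 4.93 or more). Intervals and limits of a count of 0 (3 counts) cover counting error or the fit only: reads carried no molecular identifiers and may repeat a molecule.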

Additional observations from a re-analysis of the deposited data

Results flagged for a closer look

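For 12 members the effect of ADI-PEG20 differed between TOM-1 and RS4;11 by the interaction test in edgeR (log2 difference, TOM-1 minus RS4;11). For EIF5A edgeR gave -1.43 (adjusted p = 0.0123), for EEF2 -1.04 (adjusted p = 0.0018), for EEF1D -1.01 (adjusted p = 0.025) and for EEF1A1 -0.99 (adjusted p = 0.00606). In eIF3, edgeR gave EIF3B -1.16 (adjusted p = 0.0211), EIF3E -0.76 (adjusted p = 0.0107) and EIF3H -0.72 (adjusted p = 0.0443). At the cap, edgeR gave EIF4E2 -0.96 (adjusted p = 0.0127) and EIF4B -0.90 (adjusted p = 0.0125), and in the eIF2 cycle EIF2B5 -0.65 (adjusted p = 0.0135) and EIF2S3 -0.49 (adjusted p = 0.0312). EIF5 was the member with a positive difference, 0.71 (edgeR adjusted p = 0.0253). All 12 kept their direction and call without TOM-1 control replicate 3. EIF3H and EIF2S3 lost their call without any TOM-1 ADI-PEG20 or RS4;11 control library or RS4;11 ADI-PEG20 replicate 1 or 2, with adjusted p up to 0.109 and 0.0849. Over the 24 alternative fits they were called in 14 and 15, with adjusted p up to 0.109 and 0.168.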

How the results depend on the processing

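Of the called members, 10 of 25 in TOM-1 and 4 of 11 between control cultures kept their call in all 25 alternatives, and 6 of 12 for the difference in all 24. Counts of members called higher and lower were 3 and 22 in TOM-1 with all libraries. They were 7 higher with voom, 1 and 10 with 6 libraries alone and 7 higher in each of the 3 combinations without TOM-1 control replicate 3. With a library left out they were 2 to 7 and 17 to 28. Over all genes voom called 4474 higher of 17349, and 6 libraries alone 1237 higher and 1402 lower of 15320. The combinations called 3808 to 3985 higher of 18321. With a library left out, 1820 to 3996 genes were called higher and 2082 to 3620 lower, of 18182 to 18388. For the difference (1 and 11) the member counts were 2 and 19 by DESeq2's Wald test and 8 and 24 by voom. They were 2 higher with copies added and 0 higher with length offsets. Over all genes these fits called 1467 and 1761 of 31363, 3033 and 2835 of 17349, 1023 higher of 17324 and 1090 higher of 17349. The combinations gave 7 and 24 members (DESeq2 size factors), 7 and 25 (upper quartile) and 9 and 24 (replicate block). Of 18321 genes they called 2750 and 2753, 2626 and 2944, and 2933 and 2786. Leaving out a library gave 0 to 8 and 7 to 24 members, against 523 to 2876 and 625 to 2691 genes. Between control cultures (3 and 8) the member counts were 4 lower with no filter, 7 and 25 by voom and 2 lower with 6 libraries alone. Over all genes these fits called 3011 lower of 31363, 4906 and 5131 of 17349, and 1850 lower of 15451. There the combinations gave 5 and 27, 7 and 26, and 7 and 26 members. Of 18321 genes they called 4517 and 5167, 4582 and 5139, and 4643 and 5014. Leaving out a library gave 2 to 7 and 4 to 25 members, against 1997 to 4648 and 2651 to 5033 genes. In RS4;11 only the replicate block without TOM-1 control replicate 3 called a member, 1 lower (EIF4G2, -0.20, adjusted p = 0.0101). That fit called 91 higher and 118 lower of 18321 genes in RS4;11.

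Of the directions that turned with a call, most did so under voom, the DESeq2, upper-quartile and replicate block combinations without TOM-1 control replicate 3, and without that library alone, in this order of log2 values. EIF4EBP1 was 0.48, 0.49, 0.47, 0.52 and 0.50 in TOM-1, and 0.50, 0.52, 0.49, 0.57 and 0.54 for the difference. Between control cultures EEF1B2 was -0.23, -0.25, -0.25, -0.28 and -0.23, EIF1 -0.36, -0.40, -0.40, -0.40 and -0.38, and EIF3D -0.22, -0.25, -0.24, -0.25 and -0.23. EIF3G was -0.25, -0.31, -0.30, -0.28 and -0.29, EIF3K -0.43, -0.47, -0.46, -0.46 and -0.45, and EIF5B -0.16, -0.19, -0.19, -0.18 and -0.17. Under 1 combination each, EIF2S2 turned between control cultures (-0.16, replicate block) and EIF4G3 for the difference (-0.31, upper quartile). Leaving out TOM-1 control replicate 2 instead gave the other end of the range, -0.53 and -0.49 for EIF4EBP1, and 0.37, 0.21, 0.20, 0.64, 0.36 and 0.16 for EEF1B2, EIF1, EIF3D, EIF3G, EIF3K and EIF5B. Directions turned in at least 1 alternative with no call for 9 members in TOM-1 (EIF6, EIF4G2, EIF4G3 and EIF2S2 among them), 12 in RS4;11, 8 for the difference and 11 between control cultures. The cause was not tested beyond leaving the library out.

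The labels do not say whether replicate numbers pair the samples. Same-numbered deviations correlated at -0.06 to 0.14, and differently numbered ones at -0.10 to 0.07. Between RS4;11 control and ADI-PEG20 libraries, same-numbered deviations correlated at 0.06, 0.03 and 0.14. Differently numbered ones there lay between -0.10 and 0.06. These values do not settle whether the RS4;11 samples were paired. The replicate block alone called 4 members higher and 23 lower in TOM-1, 1 and 10 for the difference, 3 and 9 between control cultures and 0 in RS4;11. In the same order, it called 2751 and 2573, 992 and 947, 2552 and 3095, and 0 of all 17349 genes. Low counts limit EIF4EBP3, EIF4A1, EIF3C and, in RS4;11, EIF4E3. EIF4EBP3 and EIF4A1 also share exonic bases with genes in the same orientation, and EIF3C has a near-identical copy. Whether these lower their counts was not tested.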
